A study of Drosophila melanogaster with 60 samples.

Results

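The genes described here are 6 that act on the clock proteins PERIOD (PER) and TIMELESS (TIM) after these are made: the kinase genes dco (also called dbt or doubletime), nmo, CkIIalpha, CkIIbeta and sgg, and the ubiquitin ligase gene slmb. They were chosen by name and not by a rule on their values, though earlier results of these data were known. They are 6 of the 13969 genes in the deposited tables. RNA came from the abdominal fat tissue of mated female Drosophila melanogaster, 10 flies pooled per library, and was read around a day of 12 h light and 12 h dark after 5 days of entrainment. The groups were Clk-Jrk flies at 25 °C (12 libraries, 6 times of day), wild-type w1118 flies at 18 °C (24 libraries, 12 times) and wild-type w1118 flies at 25 °C (24 libraries, 12 times), with 2 replicate samplings at each time. Flies were about 3 days old. Clk-Jrk is a mutant allele of Clock, whose protein activates the transcription of per and tim, and it had been backcrossed for 7 generations. Being carried in the whole fly, it does not single out the fat tissue. Times are zeitgeber times (ZT), in hours after lights on, with lights off at ZT 12. Nothing in the labels says whether the replicate samplings came from separate fly cultures, so a p-value measures the spread between these libraries.

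In the fly clock, PER and TIM accumulate in the evening, pass into the nucleus and repress the CLOCK-CYCLE activator until they are degraded. Their phosphorylation sets how fast this happens. The kinase Doubletime (from dco), of the casein kinase I family, and Nemo (from nmo) phosphorylate PER, casein kinase 2 phosphorylates PER and TIM, and Shaggy (from sgg), the fly GSK-3, phosphorylates TIM. Slimb (from slmb), an F-box protein, recognises phosphorylated PER and leads it to ubiquitination, and both Shaggy and Slimb also work in Wingless and Hedgehog signalling.

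Libraries held between 4923858 and 46590109 estimated counts. Wild type at 18 °C, replicate 1, held the same values at ZT 2 and ZT 20 for all 13969 genes, so both columns were left out and the group had 22 libraries. All 12 fat body markers were present in each group at the median. Their summed level ran from 164860 to 249036 CPM (the count scaled to the library total) in Clk-Jrk, from 36285 to 157716 CPM at 18 °C, and from 77290 to 247916 CPM for the wild type at 25 °C. Within wild type at 18 °C the replicates stood apart on this sum, at 36285 to 78127 CPM in replicate 1 and 96946 to 157716 CPM in replicate 2. RNA of tissues that the dissection was meant to remove was also present. The 25 ovary markers summed to 184 to 2481 CPM in Clk-Jrk (median 803), 74.4 to 3348 CPM at 18 °C (median 715) and 270 to 9547 CPM in wild type at 25 °C (median 1494), with Vm26Ac at a median of 0 in the group at 18 °C. In tissue RNA, fewer cells of a type and less RNA per cell cannot be told apart.

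All 6 genes were expressed in every library, and their levels per transcript length spanned more than an order of magnitude (TPM, which corrects for length and depth). CkIIalpha, the catalytic subunit of casein kinase 2 (FBgn0264492, chromosome 3L:23097072-23103460, + strand of BDGP6.54, 7 annotated transcripts), was the highest of the 6. Its lowest, median and highest TPM were 36.4, 61.1 and 89.97 in Clk-Jrk, 57.8, 82.0 and 174 in wild type at 18 °C, and 48.6, 81.9 and 243 in wild type at 25 °C. CkIIbeta, the regulatory subunit (FBgn0000259, X:11792533-11801587, + strand, 10 transcripts), followed at 14.6, 35.4 and 58.5 TPM in Clk-Jrk, 28.5, 41.9 and 82.6 TPM at 18 °C, and 29.9, 48.6 and 142 TPM in wild type at 25 °C. The catalytic subunit was above the regulatory subunit in all 58 libraries used. The log2 ratio of catalytic to regulatory TPM averaged 0.87 ± 0.28 in Clk-Jrk, 0.96 ± 0.17 at 18 °C and 0.66 ± 0.17 in wild type at 25 °C (SD over 12, 22 and 24 libraries).

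The middle of the range held sgg, dco and slmb. The gene sgg (FBgn0003371, X:2633952-2679553, + strand, 19 transcripts) had 5.70, 14.5 and 35.7 TPM in Clk-Jrk as lowest, median and highest value, 22.2, 30.6 and 55.1 TPM at 18 °C, and 21.2, 28.5 and 48.7 TPM in wild type at 25 °C. The gene dco (FBgn0002413, 3R:31054085-31061210, − strand, 5 transcripts) had 9.61, 17.7 and 30.3 TPM in Clk-Jrk, 17.6, 26.9 and 42.2 TPM at 18 °C, and 16.3, 27.9 and 97.5 TPM in wild type at 25 °C. These kinase genes could not be ranked in wild type, since sgg was above dco in 14 of 22 libraries at 18 °C and in 12 of 24 at 25 °C. The ligase gene slmb (FBgn0283468, 3R:21119252-21127485, − strand, 3 transcripts) had 11.6, 20.1 and 29.7 TPM in Clk-Jrk, 17.9, 22.3 and 32.6 TPM at 18 °C, and 15.6, 20.9 and 54.9 TPM in wild type at 25 °C. It was the lowest of these 3 genes at the median in both wild-type groups and the highest of them in Clk-Jrk, where it was above dco in 9 of 12 libraries and dco was above sgg in 9 of 12.

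The gene nmo (FBgn0011817, 3L:7979046-8054147, + strand, 8 transcripts) was the lowest member in all 58 libraries. It had 0.285, 1.16 and 2.65 TPM in Clk-Jrk, 1.31, 3.63 and 10.5 TPM at 18 °C, and 2.05, 3.90 and 15.0 TPM in wild type at 25 °C. Its values rested on few reads, with 17 to 156 estimated counts per library in Clk-Jrk, 29 to 997 at 18 °C and 75 to 685 in wild type at 25 °C. In wild type at 25 °C a single library, replicate 1 at ZT 4, held the highest TPM of all 6 genes and also the highest ovary marker sum of the group. In Clk-Jrk a single library, replicate 2 at ZT 22, held the lowest TPM of all 6. The near copies gskt (of sgg) and CkIIbeta2 and Ssl (of CkIIbeta) had too few counts to be tested, and no gene of the tables overlapped a member in the annotation.

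**Figure D1:**
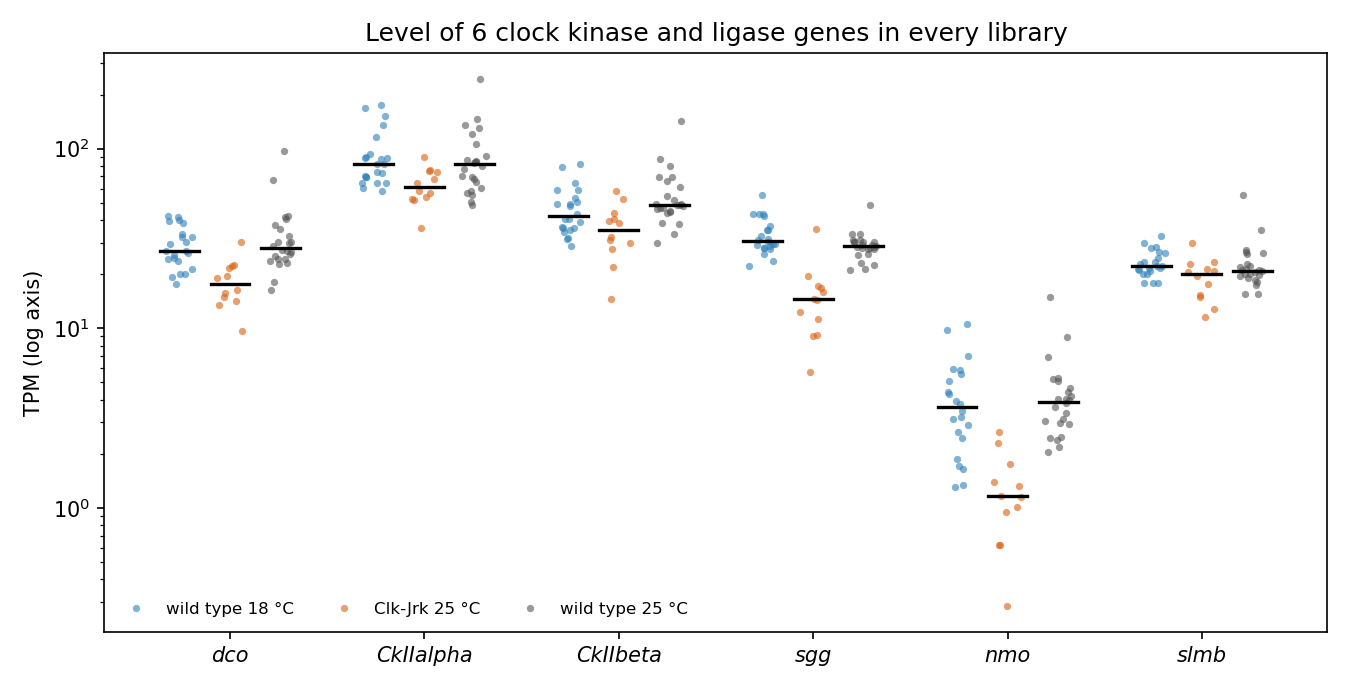
Each point is 1 library and the y axis is TPM on a log scale, by gene and group, with wild type at 18 °C and Clk-Jrk drawn left of wild type at 25 °C. CkIIalpha sits highest, with group medians of 61.1 to 82.0 TPM, and nmo lowest, with medians of 1.16 to 3.90 TPM. The Clk-Jrk points of nmo, sgg and dco lie low.

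The question of the genotype comparison was which of these genes differed when the activator of the clock was mutant. In Clk-Jrk, 4 of the 6 genes fell relative to wild type at 25 °C over the same 6 times (12 libraries each): nmo, sgg, dco and CkIIbeta. The drop was largest for nmo, to 0.386 of the wild-type level. CkIIalpha and slmb did not pass the test. Over all genes, 43.5% passed in this comparison and 24.9% were lower, and the median log2 difference of the 6 was -0.47, against -0.08 over all 9348 genes tested. Differences are in log2 CPM scaled by TMM, with their SE, and p-values are from edgeR's quasi-likelihood test with Benjamini-Hochberg adjustment over all genes.

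Among the genes for PER kinases, nmo had log2 CPM of 1.15 to 3.25 in Clk-Jrk, against 3.46 to 4.52 in wild type. Each Clk-Jrk library was below each wild-type library, which held for 0.449% of all genes, while on the TPM scale the highest Clk-Jrk library, at 2.65, was above the lowest wild-type library, at 2.45. The difference was -1.37 ± 0.20 (adjusted p = 0.0001, lower at 6 of 6 times).

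The gene dco had 9.61, 17.7 and 30.3 TPM in Clk-Jrk as lowest, median and highest value, and 22.8, 28.6 and 67.1 TPM in wild type at the same times. On the log2 CPM scale, 10 of the 12 Clk-Jrk libraries lay below the lowest wild-type library. The difference was -0.52 ± 0.10 (edgeR adjusted p = 0.00113, lower at 6 of 6 times).

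For casein kinase 2, the subunits differed in their outcome. CkIIbeta had 14.6, 35.4 and 58.5 TPM in Clk-Jrk and 38.6, 48.5 and 80.4 TPM in wild type, and fell by 0.41 ± 0.12 (edgeR adjusted p = 0.0122, lower at 6 of 6 times). On the log2 CPM scale, 8 of 12 Clk-Jrk libraries were below every wild-type library. CkIIalpha had 36.4, 61.1 and 89.97 TPM in Clk-Jrk and 56.5, 81.9 and 146 TPM in wild type, with a difference of -0.16 ± 0.11 (edgeR adjusted p = 0.244, lower at 4 of 6 times). Whether the subunits differ from each other in this response was not tested.

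The TIM kinase gene sgg had 5.70, 14.5 and 35.7 TPM in Clk-Jrk and 25.4, 28.8 and 33.4 TPM in wild type, and fell by 0.72 ± 0.14 (edgeR adjusted p = 0.000929, lower at 6 of 6 times). On the log2 CPM scale, 10 of 12 Clk-Jrk libraries were below the lowest wild-type library and 1, replicate 1 at ZT 14, was above the highest at 7.17. The spread over libraries was 0.54 in Clk-Jrk and 0.17 in wild type (SD of log2 CPM, n = 12 each). The ligase gene slmb had 11.6, 20.1 and 29.7 TPM in Clk-Jrk and 19.5, 21.5 and 35.1 TPM in wild type, with overlapping groups. Its difference was 0.04 ± 0.07 (edgeR adjusted p = 0.657, higher at 4 of 6 times). On log2(TPM + 1) in limma, slmb was lower by 0.27 ± 0.10 (adjusted p = 0.0350) and CkIIalpha by 0.41 ± 0.15 (adjusted p = 0.0291), but on that scale, which carries no TMM scaling, the median of all genes was lower by 0.28.

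Leaving out replicate 2, in a fit with a term for each ZT and a term for the group, left 1 call of the 4. It was nmo (-1.09 ± 0.25, edgeR adjusted p = 0.0343, where 14.3% of all genes passed), while dco (-0.43), sgg (-0.56) and CkIIbeta (-0.37) had adjusted p of 0.196, 0.108 and 0.111. Muscle marker RNA summed to 1174 to 2428 CPM in Clk-Jrk and 1308 to 3488 CPM over all 24 libraries of wild type at 25 °C. The top of the wild-type range was at ZT 12, a time without Clk-Jrk libraries. In the test over the shared times, 4 of 8 muscle markers were lower and 0 higher, and 8 of 25 ovary markers were lower and 0 higher. Of gut and Malpighian tubule markers tested, 1 of 9 and 3 of 5 were lower and 0 higher. Other lists went up: 4 of 12 fat body markers were higher and 0 lower (median log2 difference 0.27), and 3 of 8 haemocyte markers were higher and 0 lower (median 0.18), with 1 of 8 photoreceptor markers tested lower. Over all genes, 24.9% were lower and 18.6% higher in this comparison. The part of the fat body, haemocyte and photoreceptor lists in the level differences was not tested. In a fit with the ovary, gut, Malpighian tubule and muscle markers as covariates, 1 of the 4 calls was left, nmo (-1.50 ± 0.36, edgeR adjusted p = 0.0373, where 5.46% of all genes passed), beside dco at -0.67 (adjusted p = 0.0510), sgg at -0.73 (0.140) and CkIIbeta at -0.40 (0.223). Without the 4 libraries of this comparison that stood apart in marker or mitochondrially encoded RNA, 3 calls were left (31.1% of all genes passed), as CkIIbeta was at -0.30 ± 0.14 (edgeR adjusted p = 0.118).

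**Figure D2:**
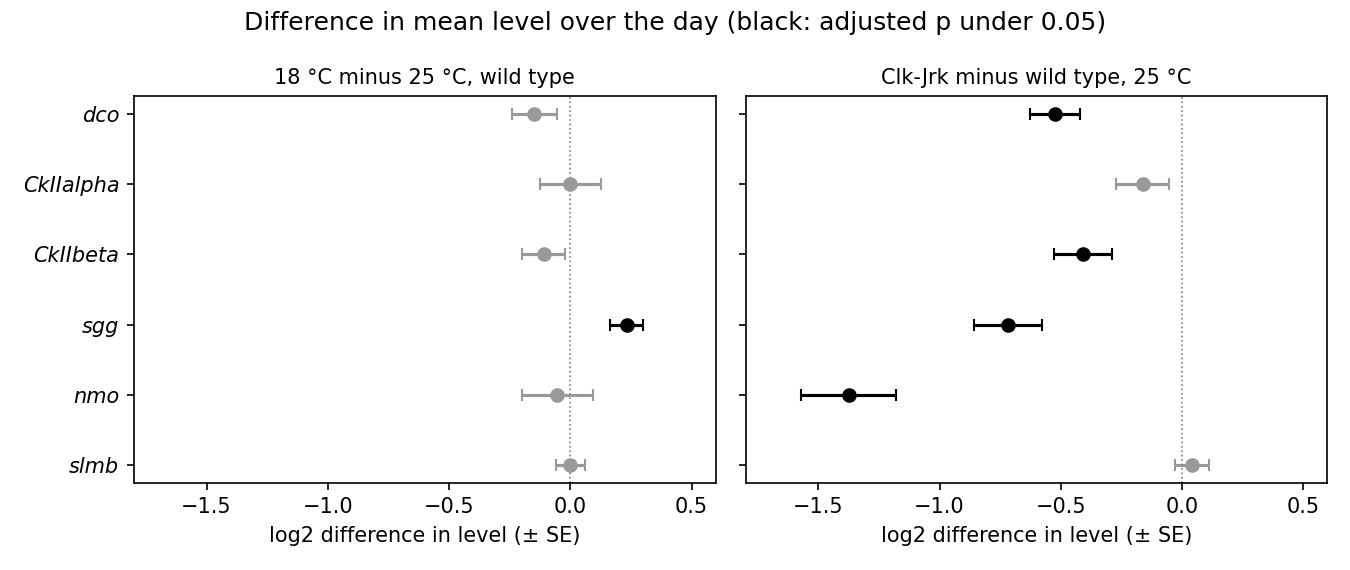
Each point is a fitted log2 difference in mean level over the shared times, with its SE, for wild type at 18 °C minus wild type at 25 °C and for Clk-Jrk minus wild type at 25 °C; black marks an edgeR adjusted p under 0.05. In Clk-Jrk, nmo, sgg, dco and CkIIbeta lie left of 0, from -1.37 to -0.41, and at 18 °C sgg alone is marked, at 0.23.

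The genes that work with these enzymes were counted in 5 lists. The core clock list is the setting in which the kinases act, and 7 of its 9 genes passed in Clk-Jrk, against 43.5% of all genes. Lower were tim (-3.63 ± 0.27), whose protein partners PER, the repressor gene vri (-2.78 ± 0.18), the activator gene Pdp1 (-1.69 ± 0.20), cwo and per. The photoreceptor gene cry rose by 1.10 ± 0.11, and jet was higher too, while Clk and cyc did not pass. Since the allele alters the CLOCK protein, the Clk RNA level is no check of the genotype. Of the kinases' substrates, tim fell the most of the list and per fell by 0.61 ± 0.17 (edgeR adjusted p = 0.0101).

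Of 9 genes in the casein kinase and Bdbt list 6 could be tested, and 4 passed, against 43.5% of all genes: the casein kinase I genes gish (-0.61 ± 0.14) and CkIalpha (-0.39 ± 0.10) and the kinase gene Doa (-0.35 ± 0.09) were lower, and Bdbt, which encodes a partner of Doubletime, was higher by 0.23 ± 0.07 (edgeR adjusted p = 0.0122). The other genes tested, CkIIalpha-i1 (-0.19 ± 0.16) and CkIIalpha-i3 (-0.17 ± 0.12), did not pass. Among phosphatases, which oppose the kinases, 6 of 10 genes tested passed. The PP2A catalytic subunit gene mts (-0.45 ± 0.08), the PP2A regulatory subunit genes wdb (-0.68 ± 0.12) and tws, and the PP1 gene flw (-0.66 ± 0.13) were lower, and Ptpa (0.30 ± 0.07) and Pp1alpha-96A were higher. The median log2 differences were -0.27 for the casein kinase and Bdbt list and -0.07 for the phosphatases, against -0.08 over all genes.

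The partners of slmb were listed as 19 genes for the SCF ligase and the COP9 signalosome, the complex that removes Nedd8 from cullins. Of these 8 passed and 11 did not, and 7 were higher in Clk-Jrk, against 43.5% of all genes that passed and 18.6% that were higher. Among them were CSN3 (0.27 ± 0.05), CSN6 (0.50 ± 0.10) and alien, the CSN2 gene (0.25 ± 0.06). The ubiquitin ligase gene ctrip was lower (-0.59 ± 0.12), and the list's median was 0.10. Shaggy and Slimb also act in the Wingless and Hedgehog pathways, and the list for these had 18 genes, including Mad and cact of other pathways. Of the 18, 10 passed and all 10 were lower, against 24.9% lower over all genes. They were the receptor genes fz (-1.39 ± 0.28) and fz2 (-0.90 ± 0.15), Apc2 (-0.86 ± 0.17) and Axn of the complex that holds Shaggy, and the feedback inhibitor nkd (-1.10 ± 0.24). Also lower were ci, Apc, pan, ptc and Mad, a transcription factor of the Dpp pathway. The list's median was -0.33. These lists were not tested as lists, and the genotype comparison is the same one that holds the marker differences above.

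**Figure D3:**
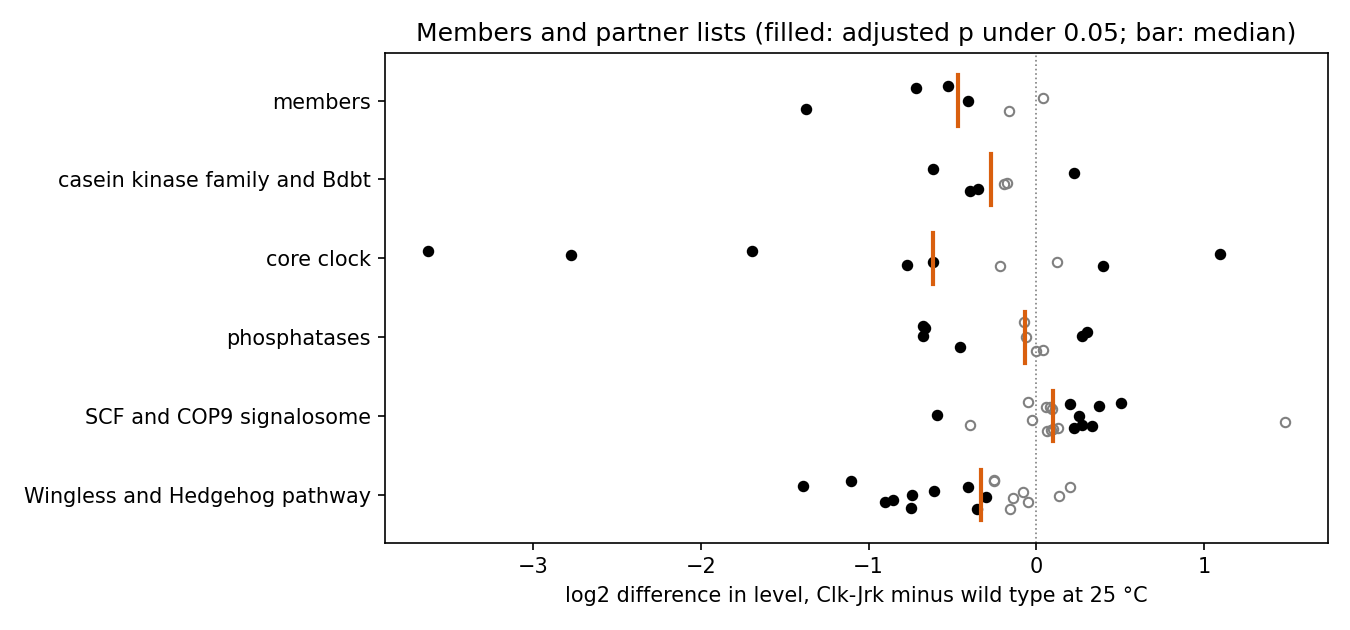
Each point is 1 gene and the x axis is its log2 difference in level, Clk-Jrk minus wild type at 25 °C, for the 6 genes and the 5 partner lists; filled points have an edgeR adjusted p under 0.05. The filled points of the Wingless and Hedgehog list all lie left of 0 and 7 of the 8 of the SCF and COP9 list lie right of it, with tim farthest left at -3.63.

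The question of the temperature comparison was whether the level of these genes over the day differed in wild-type flies held at 18 °C rather than 25 °C. Of the 6, sgg passed with a higher level at 18 °C, where 48.5% of all genes passed and 23.3% were higher. The other 5 genes had log2 differences between -0.15 and 0.00.

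The gene sgg had 22.2, 30.6 and 55.1 TPM as lowest, median and highest value at 18 °C and 21.2, 28.5 and 48.7 TPM at 25 °C, and 7 of the 22 libraries at 18 °C were above the highest library at 25 °C on the log2 CPM scale. The rise was 0.23 ± 0.07, or 1.17-fold (edgeR adjusted p = 0.00636, higher at 9 of 12 times). The call was lost without replicate 1 (0.13 ± 0.10, adjusted p = 0.318), without replicate 2 (0.23 ± 0.10, 0.0994), and on log2(TPM + 1) in limma (0.17 ± 0.08, 0.0897). Of 25 ovary markers, 23 were lower and 1 higher at 18 °C, and over libraries sgg ran against the ovary sum, with Pearson r of -0.36 at 18 °C (n = 22) and -0.44 at 25 °C (n = 24). With the mean of the ovary markers as a covariate, the difference of sgg was 0.04 ± 0.08 (edgeR adjusted p = 0.893) and 7.53% of all genes passed. Muscle markers, which summed to 2538 to 6936 CPM at 18 °C and 1308 to 3488 CPM at 25 °C, were higher in 6 of 8 and lower in 0. Haemocyte markers were higher in 5 of 8 and lower in 0, fat body markers higher in 4 of 12 and lower in 1, Malpighian tubule markers higher in 1 of 5 tested and lower in 2, gut markers higher in 1 of 9 tested and lower in 0, and photoreceptor markers higher in 0 of 8 tested and lower in 1. Over all genes, 23.3% were higher and 25.2% lower at 18 °C. With the ovary, gut, Malpighian tubule and muscle lists as covariates sgg was at 0.03 ± 0.09 (edgeR adjusted p = 0.877).

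The genes for the PER kinases did not pass. The difference at 18 °C was -0.15 ± 0.09 for dco (edgeR adjusted p = 0.197, lower at 6 of 12 times), -0.05 ± 0.15 for nmo (0.789, lower at 7 of 12), 0.00 ± 0.13 for CkIIalpha (0.9999) and -0.11 ± 0.09 for CkIIbeta (0.316, lower at 10 of 12). For slmb it was 0.00 ± 0.06 (edgeR adjusted p = 0.9999). The SE was smallest for slmb and largest for nmo and CkIIalpha, for which a change of that size could not be seen. At single times nmo differed widely, from -1.55 at ZT 2 to 0.93 at ZT 14. At ZT 2, 18 °C had 1 library, replicate 2, at a log2 CPM of 2.66. Replicates 1 and 2 at 25 °C were at 4.52 and 3.89 there.

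Over all genes, 48.5% passed between 18 °C and 25 °C. Of the partner lists, the casein kinase and Bdbt list had 5 of 6 genes past the test at 18 °C. CkIIalpha-i3 (-1.12 ± 0.14), Bdbt (-0.38 ± 0.06) and CkIIalpha-i1 (-0.46 ± 0.11) were lower, and Doa (0.43 ± 0.09) and CkIalpha (0.21 ± 0.07) higher. The core clock list had 3 of 9, below the share of all genes, with cwo (0.67 ± 0.07) and per (0.92 ± 0.16) higher and Clk (-0.40 ± 0.10) lower. The SCF and COP9 list had 6 of 19, also below that share, and all 6 were lower (25.2% of all genes were). Among them were Usp8, which encodes a deubiquitinase (-0.26 ± 0.06), CSN7 (-0.22 ± 0.06), the Skp1 gene SkpA (-0.17 ± 0.05) and alien (-0.15 ± 0.05).

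Of phosphatases 5 of 10 passed, near the 48.5% of all genes, with Pp1alpha-96A (0.43 ± 0.09), the PP2A regulatory subunit gene wrd (0.19 ± 0.05) and the PP2A scaffold gene Pp2A-29B higher and Ptpa (-0.23 ± 0.06) and tws (-0.43 ± 0.11) lower. Of the Wingless and Hedgehog list 10 of 18 passed, also near that share, 6 higher and 4 lower, among them the co-receptor gene arr (0.40 ± 0.08), the Hedgehog transducer smo (0.37 ± 0.09) and ci (0.49 ± 0.12), which were higher, and Su(fu) (-0.39 ± 0.09), a brake on Ci, which was lower. The medians of the 5 lists ran from -0.28 for the casein kinase and Bdbt list to 0.09 for the core clock, against -0.02 over all genes.

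The next question was whether these RNAs followed the day. In edgeR's test of a 24 h cosine and sine, 0 of the 6 passed in Clk-Jrk, 0 at 18 °C and 0 in wild type at 25 °C, where 0%, 2.06% and 0.396% of all genes passed. At an unadjusted p under 0.05, nmo and slmb were past at 18 °C (15.2% of all genes), 0 in Clk-Jrk (15.4%) and 0 in wild type at 25 °C (8.92%). DESeq2 called nmo (adjusted p = 0.0130) and slmb (adjusted p = 0.00680) at 18 °C, where it called 5.52% of all genes, and 0 of the 6 in either other group, with no adjusted p given for nmo in Clk-Jrk. With the replicate as a term, edgeR called nmo (adjusted p = 0.0114) and slmb (adjusted p = 0.0389) at 18 °C, where it called 6.07% of all genes. Without 1 library, replicate 1 at ZT 24, it called nmo (adjusted p = 0.0343, 3.12% of all genes). In replicate 1 alone the adjusted p was 0.514 for both genes, and in replicate 2 alone it was 0.106 for nmo and 0.251 for slmb. Core clock genes passed in edgeR in 0 of 9 cases in Clk-Jrk, 5 of 9 at 18 °C and 4 of 9 in wild type at 25 °C.

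The time course of nmo at 18 °C was the widest of the 6. In replicate 1 its log2 CPM was lowest at 3.58 at ZT 22 and highest at 5.16 at ZT 14, and in replicate 2 lowest at 2.57 at ZT 6 and highest at 4.73 at ZT 14. Both replicates thus had their top value 2 h after lights off. The cosine fit had an amplitude, the peak minus the mean, of 0.66 ± 0.18 and a peak at ZT 14.1 ± 1.02 h, 2.50-fold over the trough (edgeR p = 0.00251, adjusted p = 0.0780, n = 22). Fits of each replicate alone gave amplitudes of 0.57 ± 0.20 and 0.71 ± 0.19 and peaks at ZT 15.5 and ZT 13.5. The time of the top values, ZT 14, was the first sampled after lights off. The labels do not say which incubator held a sample, and samples after lights off may have come from another incubator. With a step in level after lights off as a term, 43 of 9348 genes passed for rhythm at 18 °C, against 193 without it. The part of the incubators in the waves at 18 °C, that of nmo among them, was not tested.

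The course of slmb at 18 °C was shallow. Its log2 CPM ran from 5.79 at ZT 6 to 6.28 at ZT 12 in replicate 1 and from 5.72 at ZT 22 to 6.14 at ZT 8 in replicate 2. The fit had an amplitude of 0.16 ± 0.03 and a peak at ZT 14.6 ± 0.766 h, 1.24-fold over the trough (edgeR p = 0.00261, adjusted p = 0.0783, n = 22), and took up 0.567 of the variance over libraries. The top values of the replicates lay at different times, and fits of each replicate alone had peaks at ZT 16.1 and ZT 13.0. The partner genes Apc and Mad passed at 18 °C (edgeR adjusted p = 0.0151 and 0.0463), with fitted peaks at ZT 15.4 and ZT 14.7. They were the 2 of 18 genes of the Wingless and Hedgehog list that did, and 0 of the casein kinase, phosphatase and SCF lists passed in any group.

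At 18 °C the other 4 genes had smaller fitted waves relative to their error: 0.16 ± 0.07 for dco (peak at ZT 16.02), 0.17 ± 0.08 for sgg (ZT 13.7), 0.10 ± 0.10 for CkIIalpha and 0.04 ± 0.08 for CkIIbeta. Their edgeR adjusted p were 0.443, 0.466, 0.831 and 0.955.

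In wild type at 25 °C no member had an unadjusted p under 0.147, that of slmb. The fitted amplitudes were 0.15 ± 0.10 for dco, 0.06 ± 0.05 for sgg, 0.17 ± 0.11 for nmo, 0.13 ± 0.11 for CkIIalpha, 0.09 ± 0.07 for CkIIbeta and 0.11 ± 0.06 for slmb. For dco, nmo and slmb the waves were larger in replicate 1, with amplitudes of 0.31, 0.36 and 0.21, against 0.03, 0.06 and 0.04 in replicate 2. The ovary marker sum of replicate 1 ran from 270 to 9547 CPM with its top at ZT 4, where these 3 genes were also highest, and that of replicate 2 ran from 361 to 3387 CPM. With the mean of the ovary markers as a covariate, the unadjusted edgeR p for rhythm was 0.559 for dco, 0.491 for nmo and 0.93 for slmb, against 0.176, 0.212 and 0.147 without it.

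In Clk-Jrk, with 12 libraries, the fitted amplitudes were 0.15 ± 0.10 for dco, 0.41 ± 0.20 for sgg, 0.34 ± 0.24 for nmo, 0.11 ± 0.07 for CkIIalpha, 0.28 ± 0.13 for CkIIbeta and 0.19 ± 0.07 for slmb. The smallest adjusted p in edgeR was 0.355, for sgg. All 6 fitted peaks fell between ZT 10.1 and ZT 12.5, on waves that did not pass. Fits of each replicate alone had peaks from ZT 7.48 (slmb, replicate 2) to ZT 14.1 (CkIIalpha, replicate 1). Among partner genes, the fitted peaks of gish (ZT 10.8) and mts (ZT 10.9) lay in the same range, and that of SkpA (ZT 1.43) did not. At ZT 22 replicate 2 held the lowest log2 CPM of 5 members and replicate 1 that of slmb.

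**Figure D4:**
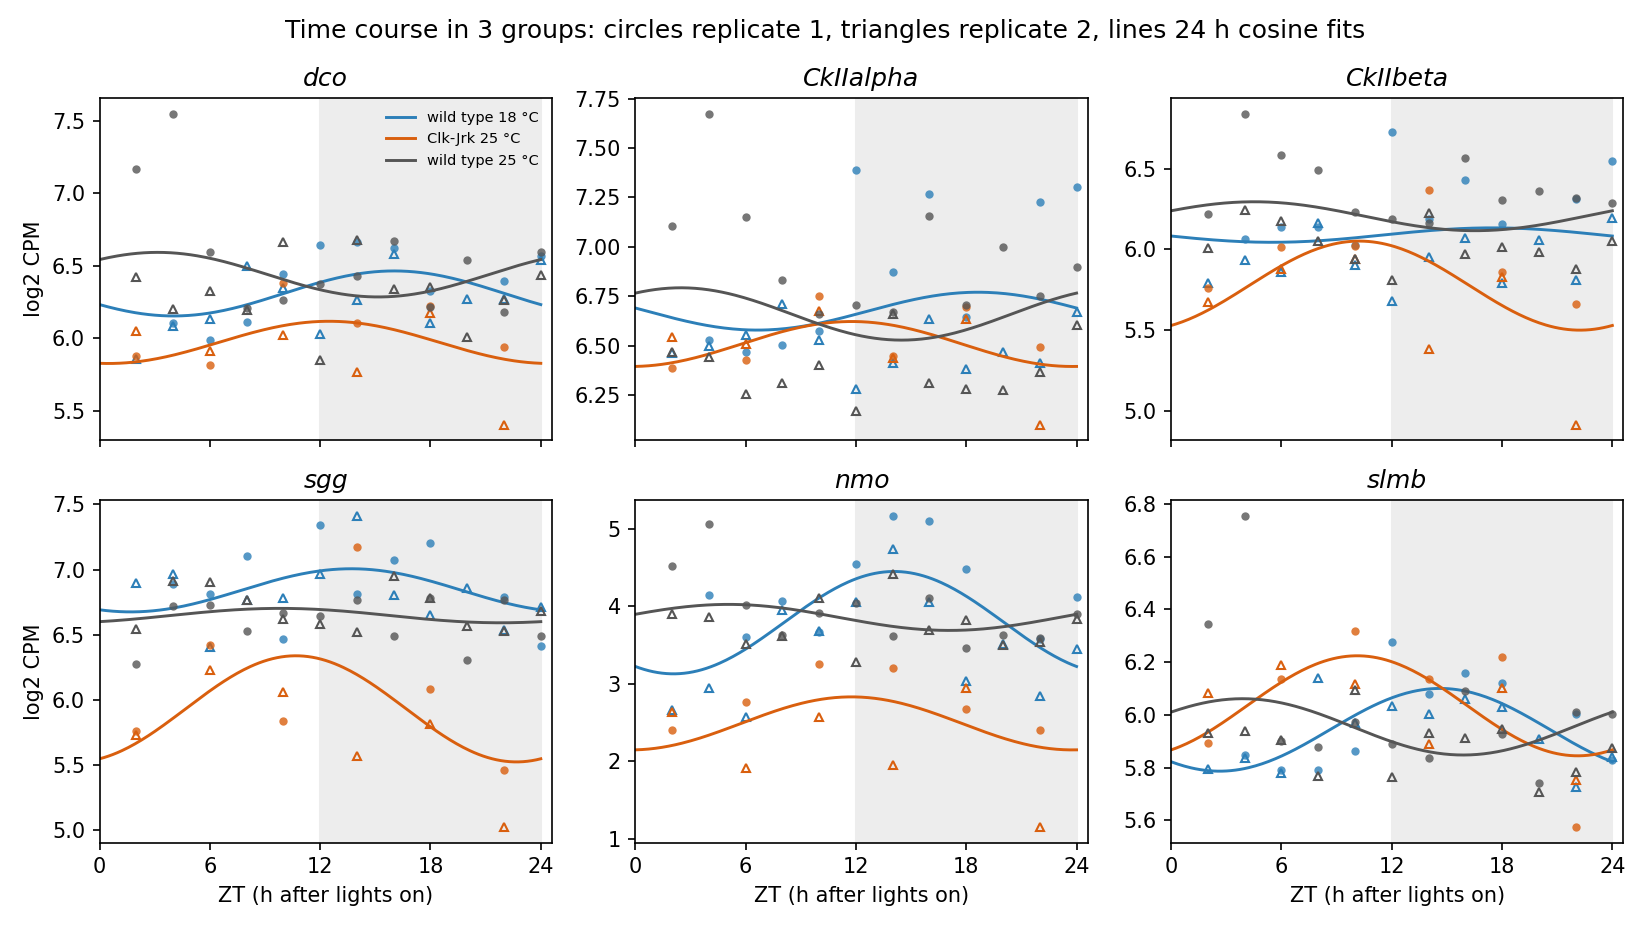
Each panel is 1 gene, with log2 CPM on the y axis (own range per gene) and ZT on the x axis; circles are replicate 1, triangles replicate 2, lines 24 h cosine fits, and the grey band the dark phase. At 18 °C nmo reaches 5.16 and 4.73 at ZT 14 in the replicates, and at 25 °C replicate 1 stands high at ZT 4 for dco, nmo, CkIIalpha and slmb. The Clk-Jrk points of nmo, at 1.15 to 3.25, lie below those of wild type at 25 °C.

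The difference in rhythm between groups was tested as an interaction. Between 18 °C and 25 °C in wild type, 0 of the 6 passed in edgeR, against 0.118% of all genes, and 3 were at an unadjusted p under 0.05 (13.9% of all genes): nmo (p = 0.000779, adjusted p = 0.155), slmb (p = 0.00282, adjusted p = 0.212) and dco (p = 0.0274, adjusted p = 0.320). The gene nmo was 47th of 9348 by p. Its fitted amplitude was larger by 0.49 ± 0.21 at 18 °C and its fitted peak lay at ZT 14.1 at 18 °C and ZT 5.07 at 25 °C, but the peak at 25 °C has an SE of 2.57 h on a wave that did not pass. DESeq2 called nmo and no other member (adjusted p = 0.0467, 0.396% of all genes).

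For slmb and dco the fitted peaks lay 10.7 ± 2.32 h later and 11.1 ± 3.01 h earlier at 18 °C than at 25 °C, with unlike values in each replicate. Shifts are taken as within 12 h either way. Fitted within replicate 1, the shift in peak time (18 °C less 25 °C) of slmb was -11.1 ± 2.09 h and that of dco -10.4 ± 2.30 h. Within replicate 2 the shift of slmb was 4.15 ± 4.25 h and that of dco 5.73 ± 15.1 h. The waves at 25 °C, which did not pass, had amplitudes of 0.04 for slmb and 0.03 for dco in replicate 2. Without replicate 1 the p of nmo was 0.0260 and that of slmb 0.157, and without replicate 2 they were 0.00211 and 0.00661. Between Clk-Jrk and wild type at 25 °C, 0 of the 6 passed in edgeR and 0 in DESeq2, and 0 were at an unadjusted p under 0.05 (9.71% of all genes), where 0% of all genes passed. The smallest adjusted p was 0.547, for slmb.

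A second readout came from the same tables. Estimated count divided by TPM gives the mean effective length of the transcripts to which a gene's reads were assigned, and it was set relative to the library median. For a gene with several transcripts of different length, a shift in this ratio is a shift in the assigned mix or in the fragment lengths of the library. For nmo, whose annotated transcripts run from 2250 to 6235 bases, the lowest, median and highest ratio were 2.24, 2.52 and 2.86 in Clk-Jrk, 2.10, 2.59 and 2.75 at 18 °C and 1.89, 2.22 and 2.86 in wild type at 25 °C. For CkIIbeta, with transcripts of 934 to 3121 bases, they were 0.706, 0.824 and 0.942 in Clk-Jrk, 0.821, 0.969 and 1.12 at 18 °C and 0.733, 0.877 and 1.08 in wild type at 25 °C. The groups overlapped for both genes.

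At 18 °C, 4 of the 6 passed in limma (5% of 7433 genes did): CkIIbeta, 1.12-fold longer (log2 difference 0.16 ± 0.04, adjusted p = 0.0148), sgg (0.06 ± 0.02, adjusted p = 0.0283) and dco (0.05 ± 0.01, adjusted p = 0.0283) had longer means, and CkIIalpha a slightly shorter one (-0.0138 ± 0.00357, adjusted p = 0.0233). For nmo the log2 difference was 0.16 ± 0.05 (limma adjusted p = 0.0526) and for slmb -0.02 ± 0.03 (adjusted p = 0.673). The absolute log2 difference over all genes had a median of 0.0061 and a 95th percentile of 0.0433. The shifts of CkIIbeta, sgg, dco and nmo were thus above that percentile, while that of CkIIalpha was small beside them. The signed median over all genes was -0.0061, of the same size as the absolute median. Genes with a single transcript, or with transcripts of like length, were not set apart. The percentile is therefore no match for genes with several transcripts. The call of sgg was lost without replicate 1 (0.03, limma adjusted p = 0.0600) and that of CkIIalpha without replicate 2 (-0.0089, adjusted p = 0.0998). With a replicate term 4993 of the 7433 genes passed in place of 372, and 4415 of the 4993 had a shorter mean at 18 °C, so the call depends on the fit and the sizes are to be read against those of all genes.

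In Clk-Jrk, 1 of the 6 passed, against 7.36% of all genes: CkIIalpha, at -0.0249 ± 0.00507 (limma adjusted p = 0.00749). The log2 difference was 0.17 ± 0.08 for nmo (adjusted p = 0.260) and -0.11 ± 0.05 for CkIIbeta (0.328), and without replicate 1 that of CkIIbeta was 0.01 while 3 members passed (10.2% of all genes): nmo at 0.41, slmb at 0.13 and CkIIalpha. Without replicate 2 the call of CkIIalpha was lost (-0.0139, limma adjusted p = 0.125) and slmb passed in the other direction (-0.08, adjusted p = 0.0209), in a fit where 4574 of the 7433 genes passed. Which transcript changed is not given by a mean length, and a level per length of these genes carries this shift.

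**Figure D5:**
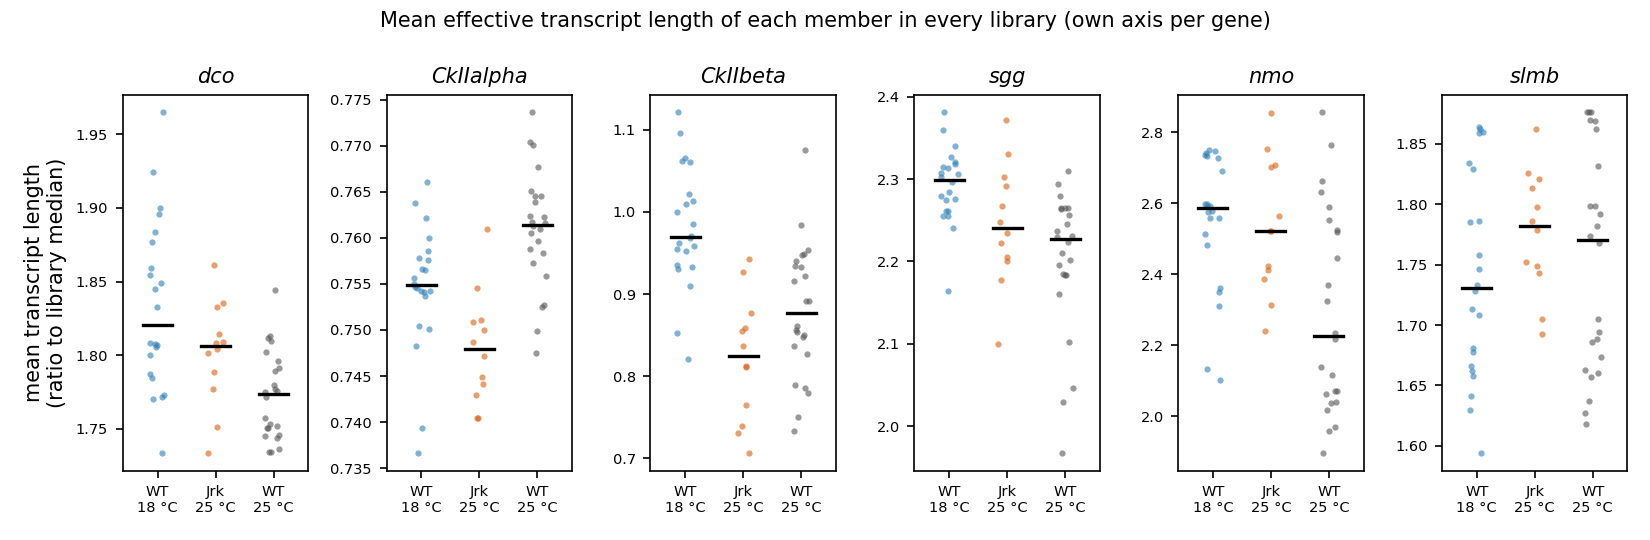
Each point is 1 library, and the y axis is the mean effective transcript length of the gene as a ratio to the library median, on an axis of its own for each gene, with wild type at 18 °C and Clk-Jrk left of wild type at 25 °C. The medians of CkIIbeta are 0.969 at 18 °C and 0.877 at 25 °C in wild type, and its Clk-Jrk median is 0.824.

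The members also varied among themselves. CkIIalpha and CkIIbeta went together over libraries, with Pearson r of log2 CPM of 0.62 in Clk-Jrk (n = 12), 0.90 at 18 °C (n = 22) and 0.90 in wild type at 25 °C (n = 24). The replicate samplings also differed for both. CkIIalpha was higher in replicate 1 at 4 of 6 times in Clk-Jrk, 8 of 10 at 18 °C and 12 of 12 in wild type at 25 °C, where it averaged 6.94 ± 0.30 in replicate 1 and 6.38 ± 0.14 in replicate 2 (SD of log2 CPM, n = 12 each). CkIIbeta was higher in replicate 1 at 6 of 6, 9 of 10 and 11 of 12 times in the same groups.

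The gene nmo showed the same order at 18 °C, at 4.25 ± 0.57 in replicate 1 (n = 10) and 3.46 ± 0.67 in replicate 2 (n = 12, SD of log2 CPM). The fat body marker sum ran the other way in wild type, at medians of 46914 and 141071 CPM in replicates 1 and 2 at 18 °C and 96531 and 199473 CPM at 25 °C. Its part in these differences was not tested.

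The genes dco and nmo had r of 0.87 in Clk-Jrk, 0.59 at 18 °C and 0.92 in wild type at 25 °C, while sgg had r with dco of 0.44, -0.02 and -0.29 in the same order. Over libraries in wild type at 25 °C, r with the log2 ovary marker sum was 0.74 for dco, 0.63 for nmo, 0.62 for CkIIalpha, 0.54 for slmb, 0.43 for CkIIbeta and -0.44 for sgg. At 18 °C, r was 0.57, 0.15, 0.18, 0.20, 0.11 and -0.36 for these genes in the same order. In Clk-Jrk it was 0.72, 0.73, 0.71, 0.27, 0.42 and 0.11. All points of a group share its depth range and dissection, so these are descriptions of the libraries.

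Genes of like pattern were sought over the 30 group and time means among the 6634 genes whose log2 CPM averaged at least 3. The highest Pearson r were 0.96 for hzg with sgg, 0.95 for CG4612 with dco, 0.94 for Usp10 with nmo, 0.93 for akirin with CkIIbeta, 0.89 for CG41099 with CkIIalpha and 0.78 for brun with slmb. Next came siz and rudhira for sgg, CG5746 and CG4911 for dco, Rala and Sur-8 for nmo, alph and spoon for CkIIbeta, CG17493 and Veneno for CkIIalpha, and CG11593 and CycY for slmb. The 30 means hold both the group levels and the times, so a high r here can come from the group levels alone. Of the 6, slmb had the lowest best match.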

How the data were processed

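Poly(A) RNA of 60 libraries was sequenced. Per the submitters' processing notes, the authors ran kallisto 0.46.2. They deposited, for each group, a table of estimated counts per gene, unscaled between libraries, and a table of TPM, which divides out transcript length and library total. No source used here gives the transcriptome release. A share of 80.5% of nonzero estimated counts was whole to within 0.001. Positions of genes were read from the annotation of BDGP6.54.

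After rounding of the estimated counts, filterByExpr over all 60 libraries kept 9348 genes, all 6 described among them, and each fit was scaled by TMM. Tests were by quasi-likelihood in edgeR 4.0.16 (R 4.3.3), and a result passed at a Benjamini-Hochberg adjusted p under 0.05. Levels had a mean per group and ZT, contrasted over the shared times. With a replicate left out, level and transcript length fits instead had a term for each ZT and a term for the group. Those runs thus differ from the main fits in model as well as in libraries. Rhythm had a cosine and a sine of 24 h, tested together, and their interaction for differences. For Clk-Jrk the comparison used the 12 libraries of wild type at its 6 times, so both comparisons share wild type at 25 °C. The SE is the difference divided by the square root of F. Amplitudes and peaks are least-squares estimates on log2 CPM (prior count 2). Relative transcript length was tested in limma 3.58.1 on log2 values for 7433 genes with at least 10 estimated counts in every library.

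For rhythm, an alternative fit had a step in level after lights off, in case those samples came from another incubator. Alternatives also included DESeq2 1.42.0, log2(TPM + 1) in limma, and a run without 6 libraries that earlier work had named for marker or mitochondrially encoded RNA. These were replicate 1 of wild type at 25 °C (ZT 2, 4, 10 and 14) and at 18 °C (ZT 24), and replicate 2 of Clk-Jrk (ZT 22), and each comparison left out those it held. The covariates from 4 marker lists were added after seeing the data. The 6 genes and all lists were chosen with earlier results of these data known. From each partner list up to 4 genes per level comparison and up to 3 per rhythm comparison, with the smallest adjusted p, were to be named, and 3 genes of like pattern per member. Further list genes were named after their values were seen. The fits were tested on simulated data. Tables and plots were made in Python 3.11.15. The spread between libraries, which includes counting error, gave the precision.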

Additional observations from a re-analysis of the deposited data

How the results depend on the processing

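Replicate numbers were not used to pair the groups in the main fits. Differences between replicates 1 and 2 correlated across genes at over 0.1 in 8 of 10 shared times for 18 °C with 25 °C (-0.19 to 0.55). Between the temperatures the replicate number thus carried a shared difference at most times. For Clk-Jrk with wild type it was 1 of 6 times (-0.58 to 0.21). With a replicate block, 4 members were called for the level in Clk-Jrk (4210 of all 9348 genes) and 1 for the level at 18 °C (5539 of 9348). For rhythm, 2 were called at 18 °C (nmo, edgeR adjusted p = 0.0114, and slmb, 0.0389, with 567 of 9348 genes) and 0 in the other rhythm tests. For transcript length, 1 was called in Clk-Jrk (630 of all 7433 genes) and 5 at 18 °C (4993 of 7433). Leaving out a replicate gave 1 to 4 calls for the level in Clk-Jrk and 0 for the level at 18 °C. Over all genes, 2607 and 1338 were called without replicates 1 and 2 in Clk-Jrk, and 2966 and 3234 at 18 °C. For transcript length the same runs gave 1 to 3 calls in Clk-Jrk and 3 to 4 at 18 °C. Of all 7433 genes, 757 and 4574 were called without replicates 1 and 2 in Clk-Jrk, and 4549 and 4076 at 18 °C. The single call for the level at 18 °C, sgg, was also lost (0 calls) on log2(TPM + 1), with the ovary covariate and with the 4 marker lists, which left 1 call in Clk-Jrk. Rhythm at 18 °C had 2 calls in DESeq2 and 1, nmo, without ZT 24 or without the 1 library of that group that stood apart, and the rhythm difference by temperature had 1 in DESeq2. The causes were not tested.

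Signs near 0 turned. For slmb the level difference at 18 °C was -0.0023 with RLE, -0.0016 in DESeq2, -0.0095 unfiltered, and -0.0117, -0.0342, -0.0165, -0.0088, -0.0170 and -0.0170 without ZT 8, 12, 14, 16, 18 and 20, and in Clk-Jrk it was -0.27 on log2(TPM + 1), -0.00058 without ZT 6 and -0.13 with 4 marker lists. For CkIIalpha at 18 °C it was 0.0384 on log2(TPM + 1), 0.0563 with the replicate block, 0.0296, 0.0605, 0.0196 and 0.0175 without ZT 2, 4, 6 and 20, 0.22 with the ovary covariate, 0.0508 without the 5 libraries that stood apart, 0.0670 with the identical pair kept and 0.31 with 4 marker lists. For dco it was 0.16 and 0.15 with the ovary and the 4-list covariates, and for nmo 0.0843 and 0.0248 without ZT 2 and 4 and 0.0191 with the pair kept. Over replicates left out, the level difference at 18 °C ran from -0.0514 to 0.0586 for slmb, -0.0412 to 0.13 for CkIIalpha and -0.28 to 0.32 for nmo, and in Clk-Jrk from -0.32 to 0.0613 for CkIIalpha. Transcript length differences ran from -0.0076 to 0.0022 for slmb at 18 °C, and in Clk-Jrk from -0.23 to 0.0110 for CkIIbeta, -0.0599 to 0.41 for nmo and -0.0793 to 0.13 for slmb.

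Of 910 single-gene values under alternatives, 848 kept the side of the threshold and, for level and transcript length, the direction. Rhythm tests have no direction to keep. The 848 include values that stayed short of the threshold, so they do not count calls that held. Of the rest, 35 turned in sign, 15 lost a call and 12 gained a call. Over all genes, level calls in Clk-Jrk were 4063, against 2607 and 1338 without replicates 1 and 2 and 510 with 4 marker lists, and at 18 °C 4532, against 2966 without replicate 1, 704 with the ovary covariate and 936 with 4 marker lists. Rhythm calls were 193 at 18 °C, against 0 to 567, 37 in wild type at 25 °C, against 3 to 103, and 0 in Clk-Jrk, against up to 171 (DESeq2). Rhythm differences were 11 by temperature, against 0 to 51, and 0 by genotype, against up to 27. Transcript length calls were 372 at 18 °C, against 4076 to 4993 with a replicate term or a replicate left out, and 547 in Clk-Jrk, against 4574 without replicate 2. Depth limits nmo most, with as few as 17 estimated counts in a library.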
